A study of Homo sapiens with 9 samples.

Results

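The guidance genes described here encode ephrins and Eph receptors, semaphorins with their plexin and neuropilin receptors, SLIT ligands with ROBO receptors, and netrins with DCC, NEO1 and UNC5 receptors. They were taken by gene symbol alone. The symbol rule took 69 of the 18970 gene symbols in the count tables, and 52 of the 69 reached 1 CPM (reads scaled to equal library totals) of labelled reads in 3 or more samples. The other 17 are listed by name only: DCC, EPHA1, EPHA5, EPHA6, EPHA8, EPHA10, NTN3, NTN4, PLXNB3, ROBO4, SEMA3B, SEMA3C, SEMA3G, SEMA4A, SEMA5B, SLIT1 and UNC5A. Each of the 52 reached that level in samples of more than 1 group.

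The cells were cranial neural crest cells (CNCCs) at passage 4, made from the established embryonic stem cell line H9. The line had been edited so that SOX9, a transcription factor of the neural crest and of cartilage, carried a degron tag, and the small molecule dTAGV-1 brings the tagged protein to a ubiquitin ligase for degradation. All samples, the 0h controls included, carried the tag and came from clone S9CC13 or clone S9CC47. The 3 groups were 0h, 3h and 24h of dTAGV-1. The labels list 500 nM for every sample, also at 0h, and put the relative SOX9 level at 100% before treatment and at 0% in both treated groups. The same 3 cultures made up every group: S9CC13_R6, S9CC47_R5 and S9CC47_R6. They are named by clone and by differentiation batch (R5 or R6). Values for 3 samples are given below in that order. The cultures therefore differ by clone or by differentiation, with 2 of the 3 sharing a clone and 2 sharing a batch, and p-values measure the spread between these samples.

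New RNA was marked by SLAM-seq. Cells took up 4-thiouridine (100 uM) for 2 h before harvest, and alkylated thiouridine was then read as a T>C conversion in 3′ end sequencing. T>C reads therefore stand for RNA made during labelling, and total reads for all polyadenylated RNA. Libraries held 16955633 to 28782678 total reads and 3130673 to 5475800 T>C reads, of which the guidance genes held 7687 to 13077. The library S9CC13_R6 at 3h stood apart, with the lowest T>C share of all libraries (15.9%, against a median of 19.5%), and counts are given with and without it. dTAGV-1 acts on the tagged SOX9 protein and not on its RNA, so the reads of SOX9 do not check the degradation. Its normalized T>C reads were 9493 to 9961 at 0h, then 15047 to 18399 at 3h and 19883 to 23542 at 24h. All 16 crest markers reached 1 CPM of total reads in 3 or more libraries, though MSX2 and DLX2 lay below it in some. The 16 summed to 3751 to 3852 CPM at 0h and 4853 to 5278 CPM at 24h. MSX1 alone was at 594 to 672 CPM at 0h and 1349 to 1553 CPM at 24h. NR2F1 was at 884 to 1095 CPM over all libraries. Of 6 endothelial markers none reached 1 CPM, with sums of at most 0.843 CPM. Of the glial markers, ERBB3 was at 9.38 to 13.4 CPM at 0h and 0.363 to 0.641 CPM at 24h, while SOX10 reached at most 0.153 CPM and FOXD3 at most 0.0374 CPM in any library. The cartilage sum was 432 to 474 CPM at 0h and 218 to 286 CPM at 24h. The part of these other cell types in the results was not tested, and in bulk RNA fewer cells of a type and less RNA per cell cannot be told apart.

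Guidance cues are short-range or secreted signals that steer growing axons and migrating cells. Ephrins sit on the cell surface and bind Eph receptor tyrosine kinases on neighbouring cells, with signalling in both directions. Secreted class 3 semaphorins bind a neuropilin paired with a plexin, whereas most other semaphorins are membrane proteins that bind plexins directly. SLITs act through ROBO receptors, and netrins act through DCC, NEO1 and UNC5 receptors. In the embryo these systems keep streams of cranial neural crest apart on their way to the face and pharyngeal arches.

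At 24h without SOX9 protein, newly made RNA of 9 of the 52 guidance genes differed from 0h. Receptors and one ligand of the semaphorin system rose: SEMA3A, NRP1, PLXNA4 and PLXND1, with the ephrin EFNB2. The ephrin EFNA5, its receptor EPHA4 and the semaphorins SEMA4D and SEMA5A fell. The 5 that rose are to be read against a background of 2.38% of the 12037 genes tested, and the 4 that fell against 2.59%. In either direction the background was 4.98%. A call means that the Wald test of DESeq2 gave a p under 0.1 after Benjamini-Hochberg adjustment over all genes tested. At 3h no guidance gene passed, against a background of 1.79%. At 3h, 7 of the 52 had an unadjusted p under 0.05, beside 7.33% of all genes, and edgeR called 1, NRP1, beside 2.39% of all genes.

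The number of calls depended on which samples and terms entered the fit. With the culture as a block, which compares samples within cultures, 5 of the 9 were called at 24h (EFNA5, EPHA4, PLXNA4, SEMA3A and SEMA5A) and no other guidance gene was, against a background of 6.00%. These 5 were also called in total reads with and without the block. Without the library S9CC13_R6 at 3h, 4 of the 9 were called at 24h (EFNA5, PLXNA4, PLXND1 and SEMA3A). Without all 3 samples of a culture, none was called when S9CC13_R6 was left out, and only EFNA5 was called when S9CC47_R5 or S9CC47_R6 was left out. The share of all genes called in fits with samples left out is not given, here or below. Such counts therefore do not show whether guidance genes lost calls more than other genes did.

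**Figure D1:**
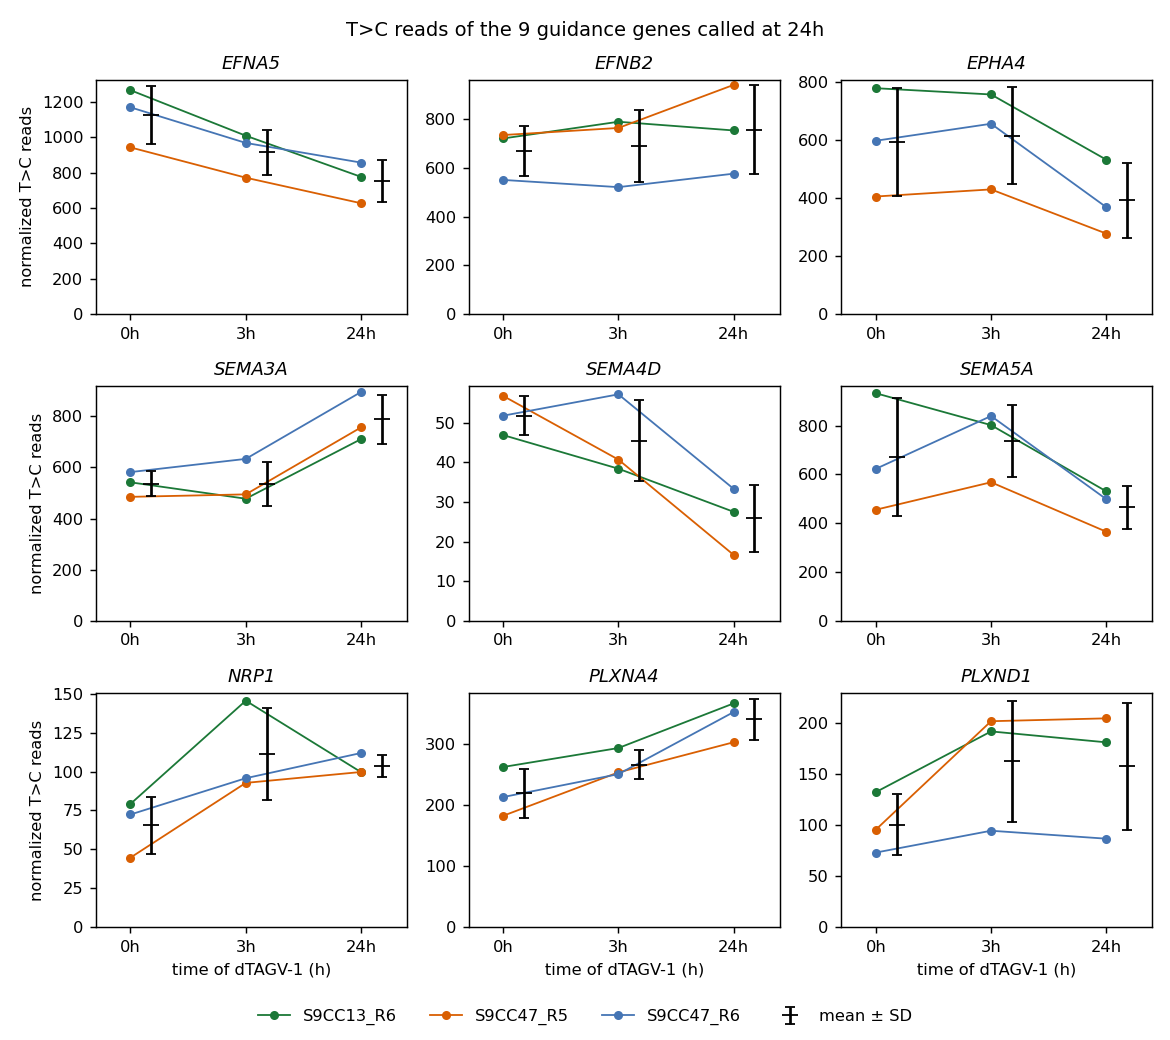
Normalized T>C reads (y axis, from 0) of the 9 guidance genes called at 24h, by time of dTAGV-1 (x axis, in h). Coloured points joined by lines are the 3 cultures and black marks are the mean ± SD of 3 samples. EFNA5, SEMA3A, PLXNA4, NRP1 and SEMA4D show no overlap between 0h and 24h, whereas EFNB2, EPHA4, SEMA5A and PLXND1 overlap between cultures. Overlap only describes genes picked by the same contrast. Genes that were not called, among them NRP2, EPHB2 and SLIT3, also showed no overlap, and the share over all genes is not given.

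The promoters of the genes called in both kinds of read with and without the block are shown because they lie at the genes the result turns on. RefSeq's table of promoter windows (build GRCh38.p14, 250 bases before to 50 after a transcription start) held windows for 43 of the 52 genes. EFNA4, EFNB3, NRP1, NTN1, SEMA3A, SEMA6A, SEMA6B, UNC5B and UNC5D have no entry in it. Each window was searched on both strands for ACAAAG and ACAATG, cores that SOX proteins are known to bind (CTTTGT and CATTGT on the other strand), and matches are in capitals. The windows are at chr5:107670888-107671187 for EFNA5, chr2:221574153-221574452 and chr2:221572255-221572554 for the 2 starts of EPHA4, chr7:132576421-132576720 for PLXNA4 and chr5:9546026-9546325 for SEMA5A, all on the minus strand and written 5′ to 3′. That of PLXNA4 begins inside the longer gene that GENCODE annotates.
EFNA5: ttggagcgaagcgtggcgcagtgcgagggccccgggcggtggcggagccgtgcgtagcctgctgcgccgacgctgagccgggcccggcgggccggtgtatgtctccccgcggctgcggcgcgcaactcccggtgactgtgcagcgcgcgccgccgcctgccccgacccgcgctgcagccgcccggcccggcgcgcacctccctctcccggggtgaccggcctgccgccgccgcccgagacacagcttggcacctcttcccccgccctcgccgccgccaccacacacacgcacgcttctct
EPHA4, first start: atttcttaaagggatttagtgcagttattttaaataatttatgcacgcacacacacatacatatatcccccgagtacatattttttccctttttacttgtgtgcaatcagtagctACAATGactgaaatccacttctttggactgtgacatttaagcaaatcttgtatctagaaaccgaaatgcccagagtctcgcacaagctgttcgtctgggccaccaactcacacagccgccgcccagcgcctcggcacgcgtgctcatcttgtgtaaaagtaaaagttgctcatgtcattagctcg
EPHA4, second start: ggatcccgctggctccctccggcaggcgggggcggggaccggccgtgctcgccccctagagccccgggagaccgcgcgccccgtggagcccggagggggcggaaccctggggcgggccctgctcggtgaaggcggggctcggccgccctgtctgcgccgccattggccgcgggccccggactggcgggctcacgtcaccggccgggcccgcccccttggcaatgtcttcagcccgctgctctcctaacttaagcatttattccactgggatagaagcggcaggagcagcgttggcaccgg
PLXNA4: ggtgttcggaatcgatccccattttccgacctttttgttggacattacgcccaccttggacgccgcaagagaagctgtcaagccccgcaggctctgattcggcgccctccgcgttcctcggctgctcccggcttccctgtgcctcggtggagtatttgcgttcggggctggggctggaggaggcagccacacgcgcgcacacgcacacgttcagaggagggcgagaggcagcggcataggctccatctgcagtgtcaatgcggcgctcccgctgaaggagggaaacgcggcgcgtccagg
SEMA5A: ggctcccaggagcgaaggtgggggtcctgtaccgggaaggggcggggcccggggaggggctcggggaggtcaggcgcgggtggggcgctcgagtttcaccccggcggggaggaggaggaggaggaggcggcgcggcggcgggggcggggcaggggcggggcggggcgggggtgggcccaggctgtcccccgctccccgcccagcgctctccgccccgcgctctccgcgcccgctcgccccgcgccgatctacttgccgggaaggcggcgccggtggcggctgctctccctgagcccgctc
The first EPHA4 window held 1 match, ACAATG, beginning 135 bases before the start, and the other windows shown held none. Among all 34943 windows in the table, 24.5% held a match. Among the 62 windows of the guidance genes, 9 did (14.5%), and among the 8 windows of 7 called genes, 1 did. The windows shown were rich in G and C apart from the first of EPHA4 (43.0%): 78.0% for EFNA5, 74.3% for the second start of EPHA4, 64.3% for PLXNA4 and 81.0% for SEMA5A, beside a median of 58.7% over all windows and 68.7% over those of the guidance genes.

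Among the 5 A-type ephrins, which are held in the membrane by a lipid anchor, EFNA5 fell in newly made RNA. EFNA5 (chr5:107376894-107670937, minus strand, last exon chr5:107376894-107381376) had 1267, 943 and 1170 normalized T>C reads at 0h, then 1009, 772 and 969 at 3h and 777, 627 and 857 at 24h. Each culture stepped down at 3h and again at 24h, and all 24h samples lay under all 0h samples. In log2 terms EFNA5 changed by -0.58 at 24h (SE 0.10; 2.2e-06 as adjusted p in DESeq2). The 3h value, -0.30 (SE 0.10), missed the threshold (adjusted p = 0.12, DESeq2). With size factors taken from total reads the 3h value passed the test at -0.37. EFNA1, EFNA2, EFNA3 and EFNA4 were not called, with log2 fold changes at 24h from -0.34 to 0.24. EFNA4, EFNA3 and EFNA1 lie next to each other on chromosome 1, with gaps of 9.28 kb and 40.3 kb. In unconverted reads, the total less the T>C reads, EFNA1 was the 1 guidance gene called at 3h (log2 fold change 2.21, SE 0.66, DESeq2 adjusted p = 0.080, background 1.03%), on few reads: its total reads were 27.3, 29.5 and 23.2 at 0h and 42.1, 67.4 and 43.6 at 3h.

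Of the 3 B-type ephrins, which span the membrane, EFNB2 was called higher at 24h and EFNB1, the gene of craniofrontonasal syndrome, was not. EFNB2 (chr13:106489745-106535662, minus strand) had 720, 734 and 550 normalized T>C reads at 0h and 753, 940 and 576 at 24h. All 3 cultures were higher at 24h, but the groups overlapped and S9CC47_R6 lay under the others at both times. Its log2 fold change was 0.33 (SE 0.11, DESeq2 adjusted p = 0.087), and within cultures it was 0.16 (adjusted p = 0.57). EFNB1 had 266, 237 and 232 T>C reads at 0h and 248, 160 and 255 at 24h (log2 fold change -0.17, SE 0.18). EFNB3 was not called in T>C reads. In total reads it was called at 24h with the culture as a block and not without it.

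Of the 9 Eph receptors tested, EPHA4 fell. EPHA4 (chr2:221418027-221574202, minus strand), a receptor that binds ephrins of both types, had 778, 405 and 597 normalized T>C reads at 0h, then 757, 430 and 656 at 3h and 532, 277 and 368 at 24h. The cultures differed among themselves at every time and the groups overlapped, while each culture fell between 3h and 24h. EPHA4 stood at 0.00 at 3h (log2 fold change, SE 0.13) and at -0.49 at 24h (SE 0.14, DESeq2 adjusted p = 0.021). The block gave -0.60 (adjusted p = 0.00032).

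The EPHB receptors for the B-type ephrins were not called in T>C reads. EPHB2 had 119, 109 and 122 T>C reads at 0h and 104, 107 and 83.7 at 24h (log2 fold change -0.09, SE 0.22), with no overlap between groups. EPHB4, which pairs with EFNB2 between arteries and veins, had 736, 849 and 849 at 0h and 742, 765 and 845 at 24h (log2 fold change -0.17, SE 0.11). EPHB3 had 711, 608 and 545 at 0h and 691, 855 and 253 at 24h, so that cultures moved in opposite directions (log2 fold change 0.05, SE 0.41). In total reads EPHB1 was called lower at 24h, with 40.4, 41.1 and 43.4 normalized reads at 0h and 17.4, 14.5 and 73.2 at 24h. It was lower in 2 cultures and higher in S9CC47_R6, and the fitted -1.05 (log2, SE 0.43, DESeq2 adjusted p = 0.098) was -0.60 with the block (adjusted p = 0.45). It was -1.70 without the library S9CC13_R6 at 3h (adjusted p = 0.047) and -1.78 without the whole culture S9CC13_R6, where it was not called.

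Among 15 semaphorins, 1 was called higher (background 2.38% of all genes) and 2 lower (2.59%). SEMA3A, a secreted repellent of axons and crest cells, lies at chr7:83955777-84492724 on the minus strand, between SEMA3E and SEMA3D. It had 542, 485 and 582 normalized T>C reads at 0h, then 478, 495 and 634 at 3h and 711, 757 and 896 at 24h. The 0h and 3h samples lay together and all 24h samples lay above them. The 24h change was 0.45 on the log2 scale (SE 0.12, DESeq2 adjusted p = 0.0078), beside 0.04 at 3h (SE 0.12). Its neighbours SEMA3E and SEMA3D were not called. SEMA3E had 19.8, 18.1 and 11.4 T>C reads at 0h and 16.1, 39.5 and 20.7 at 24h (log2 fold change 0.86, SE 0.52).

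SEMA5A and SEMA4D, which span the membrane, fell. SEMA5A (chr5:9035033-9546075, minus strand) had 933, 455 and 622 T>C reads at 0h, then 802, 567 and 839 at 3h and 530, 365 and 498 at 24h. Each culture was lowest at 24h, though the groups overlapped. On the log2 scale the 24h change was -0.47 (SE 0.15, DESeq2 adjusted p = 0.043). It was also the 1 guidance gene called in T>C reads between 3h and 24h (log2 fold change -0.62, SE 0.16, adjusted p = 0.020), where the background was 1.14%. With the block EPHA4 and SEMA3A were called there as well, against a background of 4.40%. None of the 52 was called there when any one of S9CC13_R6, S9CC47_R5 and S9CC47_R6 was left out.

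SEMA4D (chr9:89360787-89498130, minus strand), a ligand of PLXNB1, had fewer reads, with 46.9, 56.8 and 51.8 normalized T>C reads at 0h and 27.5, 16.6 and 33.3 at 24h. The groups did not overlap. The log2 fold change was -1.22 (SE 0.38, DESeq2 adjusted p = 0.035), and with the block it was -1.02 (adjusted p = 0.10). The other 12 semaphorins were not called. SEMA3F, a ligand of NRP2, had 38.6, 54.4 and 50.3 at 0h and 34.1, 46.7 and 25.9 at 24h (log2 fold change -0.39, SE 0.34). The widest fold changes belonged to genes with few reads. SEMA6D had 0, 0 and 3 raw T>C reads at 0h and 6, 12 and 6 at 24h, and SEMA6B fell by 1.69 on the log2 scale with an adjusted p of 0.28 (DESeq2).

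Of the semaphorin receptors, 3 of 10 were called higher (background 2.38% of all genes) and none lower (2.59%). With the culture as a block PLXNA4 was called, and NRP1 and PLXND1 were not. The neuropilins are co-receptors that bind class 3 semaphorins and VEGF. NRP1 (chr10:33177492-33336262, minus strand) had 79.2, 44.7 and 72.4 normalized T>C reads at 0h, then 145, 92.7 and 95.7 at 3h and 99.6, 99.7 and 112 at 24h. Samples at 3h and at 24h lay above all 0h samples. The 3h change of NRP1 was 0.69 on the log2 scale (SE 0.25, DESeq2 adjusted p = 0.22). The 24h change was 0.83 (SE 0.26, DESeq2 adjusted p = 0.042), or 0.69 with the block (adjusted p = 0.13). NRP2 had 209, 184 and 200 T>C reads at 0h and 281, 246 and 247 at 24h, with no overlap, and was not called (log2 fold change 0.40, SE 0.17, DESeq2 adjusted p = 0.20).

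Plexins transmit the semaphorin signal to the cytoskeleton. PLXNA4 (chr7:132123340-132648688, minus strand), a partner of the neuropilins for SEMA3A, had 263, 183 and 213 T>C reads at 0h, then 294, 254 and 251 at 3h and 367, 303 and 353 at 24h. All 3 cultures rose and the 24h samples lay above the 0h samples. PLXNA4 changed by 0.70 on the log2 scale at 24h (SE 0.16, DESeq2 adjusted p = 0.00062). PLXND1 (chr3:129555214-129606676, minus strand), a receptor of SEMA3E, had 132, 95.5 and 73.1 at 0h, 192, 202 and 94.5 at 3h and 181, 205 and 86.7 at 24h. S9CC13_R6 and S9CC47_R5 were higher at 3h and 24h than at 0h by more than S9CC47_R6, which at 24h lay under the 0h values of the other cultures. The fitted log2 change of 0.93 at 24h (SE 0.24, DESeq2 adjusted p = 0.0043) was 0.59 with the block (adjusted p = 0.12).

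The other 6 plexins were not called in T>C reads. PLXNA1 had 368, 318 and 321 T>C reads at 0h and 376, 324 and 275 at 24h (log2 fold change 0.06, SE 0.14). PLXNA2 had 95.9, 109 and 76.2 at 0h and 136, 125 and 106 at 24h (log2 fold change 0.45, SE 0.23, DESeq2 adjusted p = 0.37). The fitted fold changes of the 8 plexins at 24h ran from 0.06 to 2.18, and some signs depended on the terms and samples in the fit. Those of PLXNA1, PLXNA3, PLXNB1 and PLXNB2 were negative without the surrogate variable, with the block and with no covariates. They were also negative with only the 6 samples compared, a fit that held a surrogate variable. With the block and a surrogate variable those of PLXNA1 and PLXNA3 were negative. The mean reads of these 4 plexins were also lower at 24h than at 0h. The largest fitted value was that of PLXNC1 (SE 0.94), which had 2.3 to 4.2 normalized reads at 0h and whose last exon overlaps CEP83 on the other strand. The library kit keeps the strand of the RNA, but whether the counting used it is not given in the sources used here, so such reads may not be told apart. The last exons of PLXNA3 and SEMA4G overlap LAGE3 and MRPL43 in the same way.

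**Figure D2:**
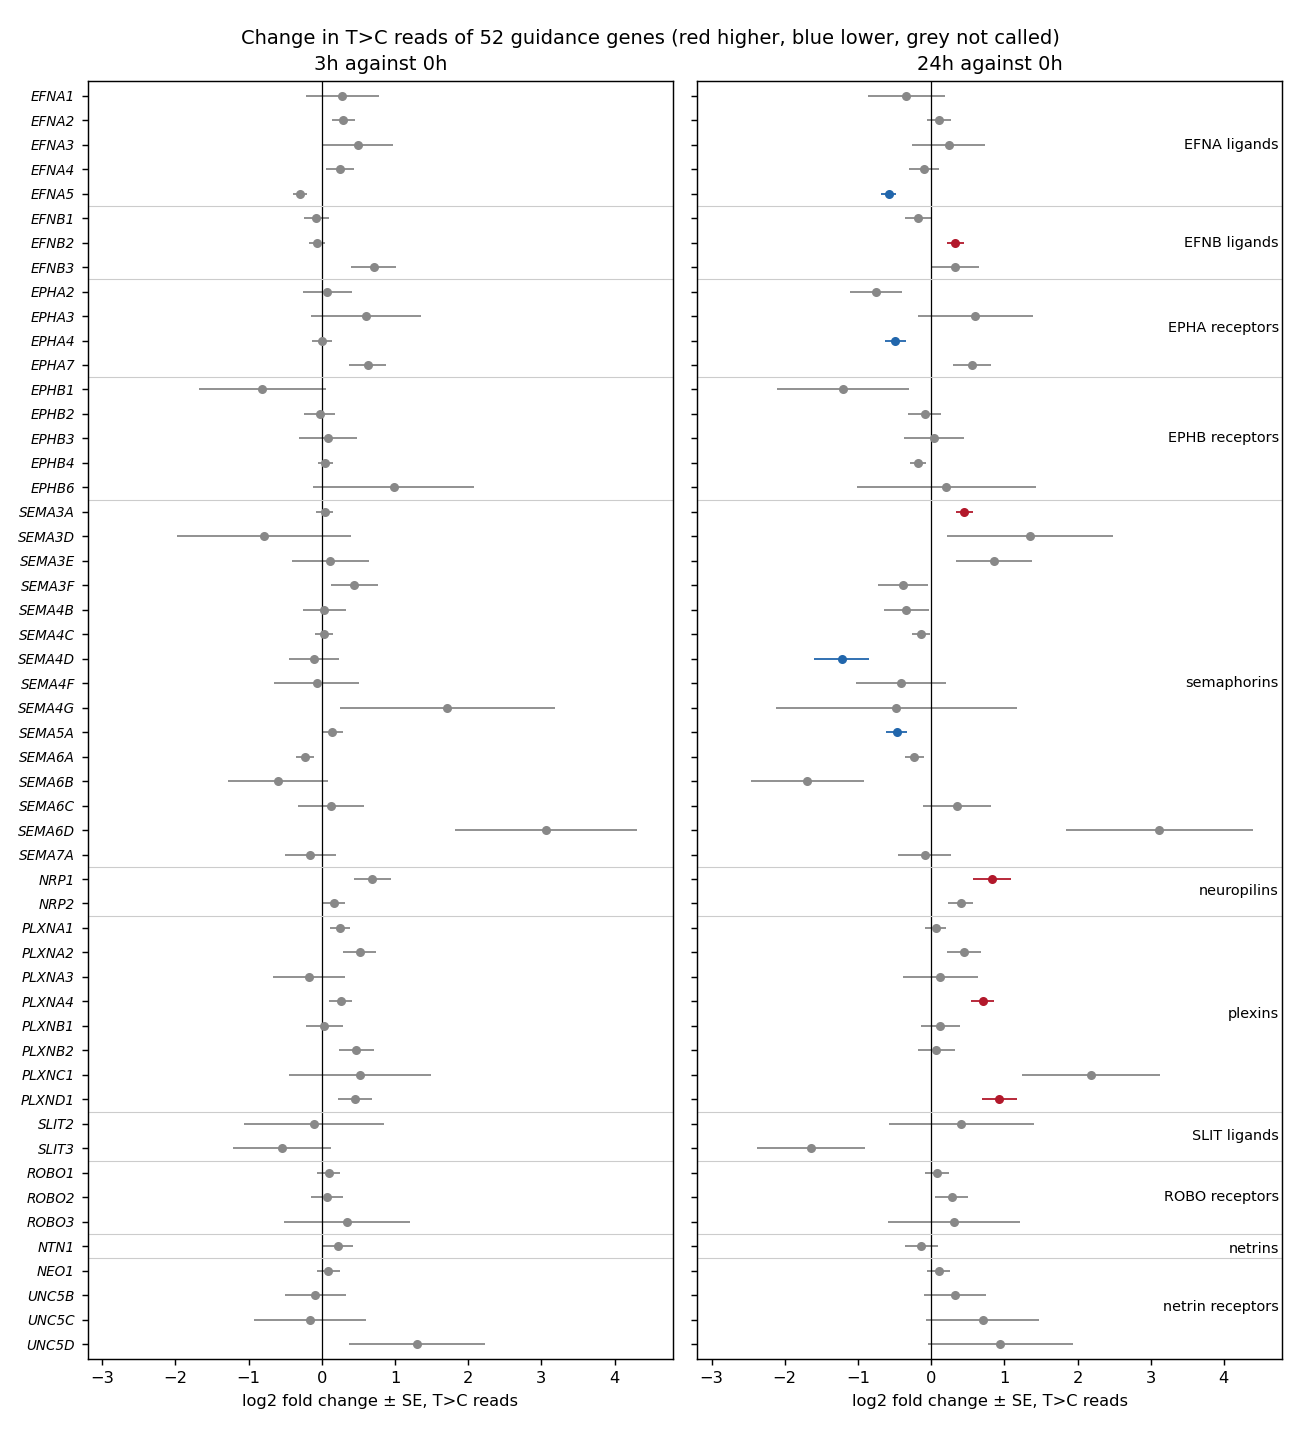
Log2 fold change in T>C reads ± SE (x axes) of the 52 guidance genes (rows, grouped by family) at 3h (left) and 24h (right) against 0h. Red points were called higher, blue points lower, and grey points were not called: none at 3h, and 5 higher with 4 lower at 24h.

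SLIT ligands and ROBO receptors, netrin 1 and its receptors gave no call in T>C reads. SLIT2 and SLIT3 were low: SLIT3 had 11.5, 19.3 and 15.2 normalized T>C reads at 0h and 6.6, 4.2 and 5.9 at 24h, with no overlap (log2 fold change -1.64, SE 0.74, DESeq2 adjusted p = 0.27). SLIT2 had 15.6, 2.4 and 5.3 at 0h and 12.3, 2.1 and 11.1 at 24h. ROBO1, their main receptor in migrating cells, had 248, 285 and 221 at 0h and 249, 296 and 331 at 24h (log2 fold change 0.08, SE 0.16). ROBO2 had 118, 94.3 and 129 at 0h and 137, 139 and 120 at 24h (log2 fold change 0.28, SE 0.23). The fitted changes of these ROBO receptors were within 2 standard errors of 0.

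NTN1, a secreted netrin, had 154, 83.4 and 146 normalized T>C reads at 0h and 133, 92.4 and 87.4 at 24h (log2 fold change -0.13, SE 0.23). NEO1, a receptor of netrins and of RGM proteins, had 299, 275 and 298 at 0h and 320, 269 and 322 at 24h (log2 fold change 0.10, SE 0.16). UNC5B had 39.6, 47.2 and 17.5 at 0h and 28.4, 58.2 and 39.3 at 24h (log2 fold change 0.32, SE 0.42). The groups overlapped for each of the 3.

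Total RNA gave more calls than newly made RNA, as it did over all genes. Of the guidance genes at 1 CPM of T>C reads, 50 were also tested in total reads, and the counts below are of these. At 3h none of the 50 was called in total reads, against a background of 1.89%. By edgeR none was called either (background 1.78%), and 11 had an unadjusted p under 0.05 in DESeq2, beside 8.22% of all genes. At 24h, 14 were called, 8 higher (background 7.11%) and 6 lower (7.85%), beside 15.0% of all 11710 genes in either direction. With guidance genes under 1 CPM of T>C reads included, 52 were tested in total reads and 16 were called. These 14 held all 9 genes called in T>C reads, in the same directions, and EPHB1, NRP2, PLXNA2, SEMA6B and UNC5B. With the block 9 were called, 8 of them among the 14, against a background of 14.7%. Without the library S9CC13_R6 at 3h, 8 of the 14 were called. With a whole culture left out, 4 of the 14 were called without S9CC13_R6, 6 of the 14 and SEMA6A without S9CC47_R5, and none of the 50 without S9CC47_R6.

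The total reads of the genes called in T>C reads moved in the same direction. SEMA3A had 1848, 1470 and 1892 normalized total reads at 0h and 2554, 2371 and 2867 at 24h (log2 fold change 0.56, SE 0.09, DESeq2 adjusted p = 1.4e-08). EFNA5 had 3554, 2800 and 3228 at 0h and 2415, 1903 and 2618 at 24h (-0.53, SE 0.09, adjusted p = 6.1e-08). PLXNA4 had 1295, 811 and 1089 at 0h and 1623, 1359 and 1577 at 24h (0.61, SE 0.10, adjusted p = 2.3e-07). In these 3 genes all 24h samples lay to one side of all 0h samples. EPHA4 had 1291, 695 and 1043 at 0h and 861, 452 and 612 at 24h (-0.56, SE 0.12, DESeq2 adjusted p = 0.00018). SEMA5A had 2526, 1647 and 2038 at 0h and 1874, 1258 and 1515 at 24h (-0.39, SE 0.11, adjusted p = 0.0065). Each culture fell in both genes, and the groups overlapped because the cultures began at different levels.

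The other 4 genes called in T>C reads were not called in total reads with the block. PLXND1 had 717, 607 and 720 normalized total reads at 0h and 1074, 1067 and 600 at 24h, higher in 2 cultures and lower in S9CC47_R6 (0.61, SE 0.12, DESeq2 adjusted p = 1.8e-05; with the block 0.37, adjusted p = 0.15). EFNB2 had 1873, 1754 and 1564 at 0h and 1946, 2035 and 1509 at 24h, again lower in S9CC47_R6 (0.24, SE 0.09, DESeq2 adjusted p = 0.077; with the block 0.07, adjusted p = 0.77). NRP1 had 275, 193 and 277 at 0h and 310, 285 and 315 at 24h (0.40, SE 0.16, DESeq2 adjusted p = 0.080; with the block 0.30, adjusted p = 0.28). For NRP1 the groups did not overlap. SEMA4D had 185, 154 and 154 at 0h and 129, 83.8 and 133 at 24h, without overlap (-0.59, SE 0.21, DESeq2 adjusted p = 0.040; with the block -0.53, adjusted p = 0.11). Leaving out S9CC47_R6 moved the total-read change of PLXNA4 to 0.35, of EFNB2 to 0.03 and of NRP1 to 0.16. Leaving out S9CC13_R6 moved that of NRP1 to 0.64, of PLXND1 to 0.93 and of SEMA4D to -0.97.

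Of the 5 genes among these 50 that were called in total reads alone, NRP2 and SEMA6B had groups that did not overlap. In total reads too, overlap only describes genes picked by the same contrast. PLXNC1, ROBO1 and SLIT3, not called in this contrast, showed no overlap either, and the share over all genes is not given. NRP2, on chromosome 2, had 567, 425 and 600 normalized total reads at 0h and 892, 691 and 845 at 24h (0.67, SE 0.11, DESeq2 adjusted p = 1.5e-07). SEMA6B, a membrane semaphorin that binds A-type plexins, had 165, 101 and 179 at 0h and 63.8, 47 and 52.6 at 24h (-1.25, SE 0.25, adjusted p = 3.4e-05). The SEMA6B fold was the widest of the 14. PLXNA2 had 236, 179 and 162 at 0h and 287, 247 and 223 at 24h (0.47, SE 0.18, DESeq2 adjusted p = 0.083; with the block 0.40, adjusted p = 0.15). UNC5B had 89.8, 127 and 53.5 at 0h and 120, 177 and 123 at 24h (0.69, SE 0.25, adjusted p = 0.055). Both were higher at 24h in 3 of 3 cultures and overlapped between groups. Without S9CC13_R6 the change of UNC5B was 0.36 and that of SEMA6B -0.75, and without S9CC47_R6 that of UNC5B was 0.42.

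Between 3h and 24h, 10 guidance genes were called in total reads, against a background of 5.39%: EFNB2, NRP2, PLXNA4, ROBO1 and SEMA3A were higher at 24h, and EFNA5, EPHA4, SEMA4D, SEMA5A and SEMA6B were lower. With the block 9 were called, all but EFNB2, against a background of 13.2%. ROBO1 had 1218, 1148 and 1363 normalized total reads at 3h and 1569, 1545 and 1668 at 24h (log2 fold change 0.32, SE 0.11, DESeq2 adjusted p = 0.077), with no overlap. With a whole culture left out, 2 of the 10 were called without S9CC13_R6, 2 without S9CC47_R5 and 1 without S9CC47_R6, and no other guidance gene was. Without S9CC47_R6 the change was -0.23 for EFNA5, 0.24 for NRP2 and 0.20 for PLXNA4. Without S9CC13_R6 it was 0.18 for ROBO1 and -0.61 for SEMA6B.

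Unconverted reads stand for RNA that was made before labelling, together with new RNA that shows no conversion. At 24h 10 guidance genes were called in them, against a background of 12.0%. EFNA5, EPHA4, PLXNA4, PLXND1, SEMA3A and SEMA5A were called in T>C, total and unconverted reads. For SEMA3A the log2 fold change was 0.60 in unconverted reads (SE 0.09) beside 0.45 in T>C reads, and for EPHA4 it was -0.72 (SE 0.15) beside -0.49. NRP1, EFNB2 and SEMA4D were called in T>C and not in unconverted reads. For NRP1 the values were 0.83 (SE 0.26) in T>C and 0.20 (SE 0.17) in unconverted reads, and the difference between the kinds of read was not tested. NRP2, ROBO1, SEMA6B and UNC5B were called in unconverted reads and not in T>C reads.

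**Figure D3:**
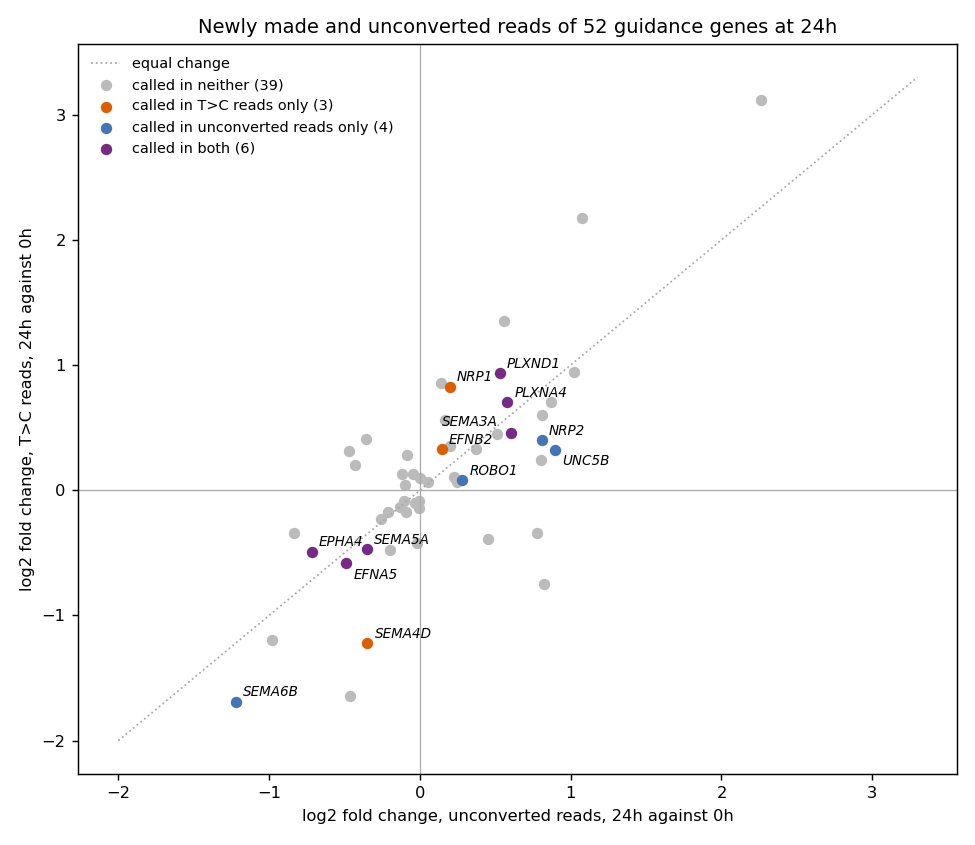
Log2 fold change at 24h against 0h in T>C reads (y axis) and in unconverted reads (x axis) for the 52 guidance genes; the dotted line marks equal change. Purple genes were called in both, orange in T>C reads alone and blue in unconverted reads alone, and the 13 named genes have the same sign on both axes.

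The share of a gene's reads with a conversion differed widely among the guidance genes before SOX9 was removed. This share depends on how fast RNA turns over and also on how many T bases the sequenced fragments hold, so it is given as a description. Over the 30 guidance genes with 100 or more total reads in each 0h sample, the median share at 0h was 31.8%, beside 26.5% over 9208 genes. EPHA4 had 58.4%, 61.9% and 58.3%, and SEMA4C had 65.5%, 71.9% and 67.3%. Both lay above the 95th percentile of all genes. ROBO3 was the lowest of the 30, with 7.34%, 2.70% and 6.06%, followed by PLXNB2 with 8.63%, 12.3% and 8.84%. The 7 plexins had a median of 15.5% and the 6 semaphorins a median of 33.2%. At 24h the share of EPHA4 was 65.3% ± 2.04 and that of SEMA3A 32.5% ± 3.56 (SD, n = 3). The mean share of NRP1 was 26.4% at 0h and 36.6% at 24h, and that of SEMA4D was 32.6% and 23.6%. Over all reads of a library the share was 18.5% to 20.1% at 0h and 19.8% to 21.3% at 24h. Changes in the share were not tested.

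**Figure D4:**
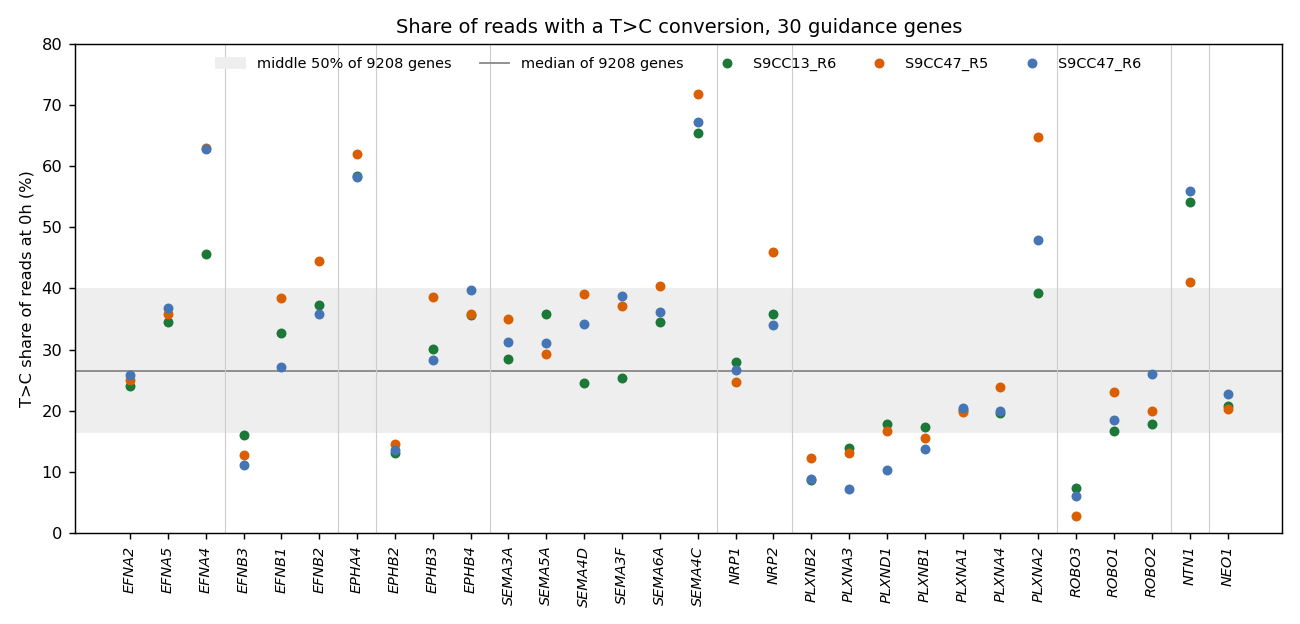
Share of reads with a T>C conversion at 0h (y axis, in %) for the 30 guidance genes with 100 or more total reads in each 0h sample (x axis, grouped by family), 1 point per culture. The line and the grey band are the median and the middle 50% of 9208 genes; 5 genes lie above the band by their mean, with SEMA4C and EPHA4 the highest, and 7 lie below it, with ROBO3 the lowest.

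Cultures differed in some of the same genes. In a fit of T>C reads with time and culture, 3 guidance genes differed between batch R5 and R6 of clone S9CC47, against a background of 0.690%. EFNB2 (log2 fold change 0.56, SE 0.12) and PLXND1 (0.93, SE 0.22) were higher in R5 and EPHA4 was lower (-0.53, SE 0.13). Between clone S9CC13 and clone S9CC47 in batch R6 there were 3 as well, against 1.32%: EFNB2 (0.46, SE 0.13) and PLXND1 (0.98, SE 0.22) were higher in S9CC13 and EPHA2 was lower (-1.54, SE 0.45). So EFNB2 and PLXND1, called higher at 24h without the block, were also lower in S9CC47_R6 than in both other cultures. Each culture had 1 sample a time, so these differences are between 3 cultures and not between clones or batches in general.

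Other genes of these pathways were taken from a list of 57 intracellular partners and further ligands, 45 of which were tested in T>C reads. At 24h, 2 rose (background 2.38%) and 5 fell (2.59%). FLRT3, a membrane partner of ROBO1 and UNC5B, rose by 0.93 on the log2 scale (SE 0.14, DESeq2 adjusted p = 1.6e-08), and VASP, an actin regulator, with 0.85 (SE 0.19). Of those that fell, RGMA, a ligand of NEO1, changed by -0.84 (SE 0.15) and SRGAP3, a GTPase-activating protein that binds ROBO receptors, by -1.63 (SE 0.34). DPYSL3, a collapsin response mediator downstream of semaphorins, changed by -0.63 (SE 0.19), the Rac activator TIAM1 by -0.49 (SE 0.16) and the actin-binding ABLIM1 by -0.69 (SE 0.13). At 3h VASP was called higher (0.61, SE 0.18, DESeq2 adjusted p = 0.053). ABLIM1 (-0.39, SE 0.12, DESeq2 adjusted p = 0.099) and ROR2 (-0.30, SE 0.09, DESeq2 adjusted p = 0.074) were called lower, beside 1.79% of all genes in either direction. None of the list was called at 3h in total reads (46 tested, background 1.89%) or in unconverted reads (45 tested, background 1.03%). Whether these calls held with the culture as a block is not given. The median log2 fold change of the 45 genes at 24h was 0.01, beside 0.00 over all genes and 0.10 over the 52 guidance genes.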

How the data were processed

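SLAM-seq libraries of 9 samples were analysed from 2 tables. Per the labels and the study's methods, the authors trimmed adapters and poly(A), mapped and counted reads with slamdunk (genome build hg38, per the submitters' processing notes) and merged the counts per gene. The deposited values are raw read counts, of all reads and of reads with a T>C conversion, with no normalization or molecular identifiers stated. All 9 value columns of each table were used.

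Tests covered coding genes that reached 1 CPM in 3 or more samples, 12037 in T>C reads and 11710 in total reads. Each measure had 1 DESeq2 fit (version 1.42.0 under R 4.3.3) whose terms were time, batch of differentiation and 1 surrogate variable found by svaseq (sva 3.50.0), without independent filtering. The threshold for a call was 0.1 on the Benjamini-Hochberg adjusted p-value. Reads are printed after division by the size factors of DESeq2. Subtracting T>C from total reads gave unconverted reads. Fits were checked on simulated data.

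Cultures pair samples across times through the clone and batch in the titles. Correlations of deviations within cultures were 0.0169 to 0.286 for T>C reads and -0.0566 to 0.606 for total reads. Alternatives were a fit with culture as the replicate block, edgeR 4.0.16, other scalings and filters, and each culture left out.

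The genes, lists and tests were chosen with earlier results of these data known. Among the 52 genes at 1 CPM of T>C reads, values are named for those called in T>C or total reads. They are also named for those with a known part in the neural crest or face. Gene positions are those of GENCODE release 44 (hg38), matched by symbol. The counted 3′ intervals were not used here. Depth was 3130673 to 5475800 T>C reads per library, so genes with few reads have wide errors. The summed level of the glial markers is not reported here.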

Additional observations from a re-analysis of the deposited data

Results flagged for a closer look

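For 11 results the effects at 3h and at 24h differed by the test of the difference itself (24h against 3h in the same DESeq2 fit). The 0h samples are shared by both effects. In T>C reads this was SEMA5A, with a log2 difference of -0.62 between 24h and 3h, against a background of 1.14% of all genes. The background in total reads was 5.39%. In total reads the difference was positive for EFNB2 (0.30), NRP2 (0.40), PLXNA4 (0.51), ROBO1 (0.32) and SEMA3A (0.50). It was negative for EFNA5 (-0.39), EPHA4 (-0.53), SEMA4D (-0.89), SEMA5A (-0.54) and SEMA6B (-0.99). With the culture as a block EFNB2 was at 0.05 and was not called (DESeq2 adjusted p = 0.84). When any culture was left out, SEMA5A lost its call in T>C reads. In total reads SEMA3A and SEMA5A kept their calls without S9CC13_R6 and without S9CC47_R5. Only SEMA6B kept its call without S9CC47_R6.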

How the results depend on the processing

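Of 486 values of the 34 called results of single genes under alternatives, 307 kept direction and side of the threshold, 178 kept the direction and lost the call, and 1 turned: EFNB2 in total reads, 24h against 3h, was -0.11 without S9CC47_R6 (replicate 3; range with a culture left out -0.11 to 0.38).

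For T>C reads at 24h the 9 calls became 5 without the surrogate variable, 5 with the replicate block, 4 with no covariates, 5 with only the 6 samples compared, 4 without the library S9CC13_R6 at 3h (an alternative chosen after seeing the data), and 0 to 1 with a culture left out. For T>C reads at 24h against 3h the 1 call became 4 with edgeR, 2 with TMM factors, 3 without the surrogate variable, 3 with the replicate block, 2 when it was joined by a surrogate variable, 3 with no covariates, 3 with all genes of at least 1 count, 2 with size factors from total reads, 2 without that library, and 0 to 0 with a culture left out. For T>C reads at 3h the 0 calls became 1 with edgeR and 1 with size factors from total reads. For total reads at 24h the 14 calls became 8 without the surrogate variable, 9 with the replicate block, 5 with no covariates, 8 with only the 6 samples compared, 8 without that library, 9 at an adjusted p under 0.05, and 0 to 7 with a culture left out. For total reads at 24h against 3h the 10 calls became 6 with the block and a surrogate variable, 5 with no covariates, and 1 to 2 with a culture left out. For total reads at 3h the 0 calls became 1 without that library and 0 to 1 with a culture left out. Apart from the replicate block and edgeR at 3h, the share of all genes called under these alternatives is not given. The counts therefore do not show whether guidance genes moved more than other genes. The cause of these moves was not tested. Fits with samples left out also held fewer samples.

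Among log2 fold changes that were not called, some near 0 changed sign. In T>C reads at 24h, EPHB3 was -0.13 without the surrogate variable, -0.20 with the replicate block, -0.15 when it was joined by a surrogate variable, -0.052 with no covariates and -0.24 with 6 samples (-0.17 to 0.21 with a culture left out). PLXNA1 was -0.049, -0.059, -0.019, -0.049 and -0.060 under the same alternatives, and SLIT2 was -0.061 with the block and a surrogate variable. With a culture left out, EFNB1 ranged from -0.41 to 0.070, NEO1 from -0.053 to 0.20, NTN1 from -0.24 to 0.039, SLIT2 from -0.54 to 1.33 and UNC5B from -0.10 to 0.33. At 3h EFNB2 was 0.047 without the surrogate variable, 0.035 with the replicate block and 0.050 with no covariates, EPHA4 was -0.089 with size factors from total reads, and SEMA3A was -0.0016 without the surrogate variable, -0.00892 with the replicate block, -0.00518 with no covariates and -0.011 with size factors from total reads. With a culture left out at 3h, EFNB2 ranged from -0.019 to 0.095 and SEMA3A from -0.078 to 0.077.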
